A study of Mus musculus with 10 samples.

Results

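The fibrinogen genes are Fga, Fgb and Fgg, which encode the alpha, beta and gamma chains of fibrinogen. They were chosen by name, with their levels in these data already known, and are 3 of the 28808 genes that appear in any of the count tables. All tables come from single cells of the kidney cortex of mice aged 4 weeks. There was 1 library of normal kidney (the control), 1 library each of injured kidney on days 1, 2 and 4, and 2 libraries each of injured kidney on days 7, 11 and 14. The labels give neither the kind of injury nor the strain, sex or animal, so p-values measure only the spread between libraries of a day, which may be technical. Cells were captured by Drop-seq, in which a barcoded microbead marks each cell's RNA, and values are counts of unique molecular identifiers (UMIs), each standing for 1 captured RNA molecule.

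Fibrinogen is the soluble plasma protein that thrombin cuts into fibrin, the mesh of a blood clot. Hepatocytes make most of it. Its chains are joined inside the cell before secretion, and in liver the 3 genes are known to respond together to interleukin-6 through STAT3, with C/EBP factors also acting at their promoters. Fibrinogen made by epithelial cells outside the liver, the kidney tubule included, has been described in injury.

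The 3 genes lie side by side. In GENCODE release M21 (mm10), Fgg spans 83007724 to 83015049 on the plus strand of chromosome 3, Fga spans 83026076 to 83033627 on the plus strand, and Fgb spans 83040141 to 83049863 on the minus strand, a stretch of 42.1 kb in all. A long intergenic RNA gene on the minus strand, Gm30097, overlaps the 5′ end of Fgg. Whether the authors' counting used the strand is not given in the sources used here, so reads of Fgg and of Gm30097 could not be told apart where they overlap; none of the 10 tables has a row for Gm30097. The flanking genes are Lrat, a retinol-esterifying enzyme, and Plrg1, a splicing factor.

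The promoters are printed because the chains moved together across days and differ in the motifs they hold. The 250 bases before each RefSeq gene start (GRCm38.p6, the assembly of mm10) were searched on both strands for CTGGGAA (the core of the type 2 interleukin-6 response element), TTCNNNGAA (STAT), TTGCNNAA (C/EBP) and TATAAA (the TATA box). Each is written 5′ to 3′ on its gene's strand, with the matches in capitals. Fga is chr3:83025903-83026152 on the plus strand, Fgb is chr3:83049864-83050113 on the minus strand and Fgg is chr3:83007474-83007723 on the plus strand.
Fga: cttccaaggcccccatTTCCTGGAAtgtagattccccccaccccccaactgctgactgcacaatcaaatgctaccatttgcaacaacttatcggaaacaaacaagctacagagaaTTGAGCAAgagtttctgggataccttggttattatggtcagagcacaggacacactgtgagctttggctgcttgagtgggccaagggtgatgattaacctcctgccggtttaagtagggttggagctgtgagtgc
Fgb: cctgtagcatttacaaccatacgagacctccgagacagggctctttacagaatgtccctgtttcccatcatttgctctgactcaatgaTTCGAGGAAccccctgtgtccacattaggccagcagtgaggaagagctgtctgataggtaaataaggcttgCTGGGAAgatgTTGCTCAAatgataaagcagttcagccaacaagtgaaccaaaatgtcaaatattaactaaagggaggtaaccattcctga
Fgg: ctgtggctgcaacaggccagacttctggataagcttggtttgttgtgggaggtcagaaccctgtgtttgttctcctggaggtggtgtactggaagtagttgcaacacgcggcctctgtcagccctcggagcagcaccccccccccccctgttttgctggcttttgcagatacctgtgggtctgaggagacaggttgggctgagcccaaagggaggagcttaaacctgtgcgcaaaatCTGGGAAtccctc

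Fgb held 3 of the 4 motifs, lacking only TATAAA. Its CTGGGAA match begins 91 bases before the gene start and its TTGCNNAA match 80 bases before it. Fga held TTCNNNGAA and TTGCNNAA, with first bases 234 and 135 before its RefSeq start. That start differs from the GENCODE start of 83026076 given above. The Fga window runs to 83026152, so its last bases lie inside the gene as GENCODE spans it, and both matches lie closer to the GENCODE start. Fgg held only CTGGGAA, 13 bases before its start. No 2 matches overlapped. Of 32851 RefSeq mouse promoters cut to the same 250 bases, 9.1% held CTGGGAA, 7.02% TTCNNNGAA, 9.56% TTGCNNAA and 12.4% TATAAA. A match is a description of the letters and not evidence of binding.

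Of 64803 barcodes, 50151 cells were used, between 3389 and 6593 per library, with median depths of 1254 to 2664 UMIs per cell. The libraries held between 7091848 and 31632205 UMIs. Cells were assigned to a class by marker gates: at least 3 UMIs from at least 2 markers of a class, with the strongest class taken. That placed 39105 cells in 6 tubular classes, 27041 of them in the proximal tubule gate, whose 17 markers include Slc34a1, Lrp2 and Slc5a2. A separate injured tubule gate used 8 genes, among them Havcr1, Krt20 and Sox9. Another 406 cells matched a tubular and a non-tubular class, or more than 1 non-tubular class, about equally and 3721 matched none. Of the 45 pairs of libraries, 35 shared cell barcodes, at most 11 in a pair; as a share of the smaller library, the most was 0.195%, for a pair that shared 7. The chains gave 10011 UMIs in all, in 3302 cells.

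In proximal tubule-gated cells all 3 chains were near their lowest in the control, highest on day 1, lower on day 2, high again on days 4 and 7, low on day 11 and a little higher on day 14. The control and days 1, 2 and 4 had 1 library each. Differences between those days therefore cannot be told apart from differences between libraries. Levels are chain UMIs scaled to a total of 1000000 UMIs in the gated cells (CPM), and intervals are exact 95% Poisson intervals that cover counting error only. The chains' levels are given as a description, with no test, because these values chose them.

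Fgg encodes the gamma chain, which carries binding sites for platelet and leukocyte integrins. It stood at 0.45 CPM in the control (7 UMIs in 3636 cells; interval 0.18 to 0.93). On day 1 it reached 826 CPM (789 to 864). Day 2 gave 33.3 CPM (29.4 to 37.5), and day 4 gave 224 (215 to 234). The day 7 libraries gave 318 and 97.5 CPM, the day 11 libraries 1.12 and 1.61, and the day 14 libraries 7.42 and 11.9. Day 1 was therefore 1827 times the control, with a counting interval of 885 to 4551 that reflects the 7 control UMIs. Both day 14 libraries lay above the control, at 16.4 times (7.71 to 41.8) and 26.3 times (12.5 to 66.4), while on day 11 the first library's interval included the control, at 2.49 times (0.74 to 8.31), and the second's lay above it, at 3.56 times (1.26 to 10.8).

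Fga encodes the alpha chain, the longest of the 3 and a main site of crosslinking in fibrin. It was the most abundant chain in the control, at 2.39 CPM (37 UMIs; 1.68 to 3.29). It reached 158 CPM on day 1, 18.3 on day 2 and 101 on day 4. The day 7 libraries gave 60.7 and 44.5 CPM, the day 11 libraries 2.57 and 4.83, and the day 14 libraries 4.95 and 8.67. These were 66.0 times the control on day 1 (47.0 to 95.2) and 2.07 (1.38 to 3.16) and 3.63 times (2.49 to 5.41) on day 14. The day 11 libraries were at 1.08 times (0.56 to 1.98) and 2.02 times (1.22 to 3.32). Fga had the smallest ratio to the control of the 3 chains in every library in which all 3 could be given one.

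Fgb encodes the beta chain. A single UMI was found in the control's proximal cells, or 0.065 CPM (0.0016 to 0.36). It rose in value to 264 CPM on day 1 (243 to 285), and stood at 4.28 on day 2 and 29.1 on day 4. The day 7 libraries gave 44.1 and 15.4 CPM and the day 14 libraries 0.67 and 1.72. Neither day 11 table has a row for Fgb, and since no table holds a row without counts, it was read as 0 UMIs. In 3367 and 3693 proximal cells that allows up to 0.48 and 0.44 CPM at 3 counts, and the exact 95% upper limits are 0.59 and 0.54 CPM. The ratio of day 1 to the control was 4082, but with 1 control UMI its interval ran from 730 to 161507.

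**Figure D1:**
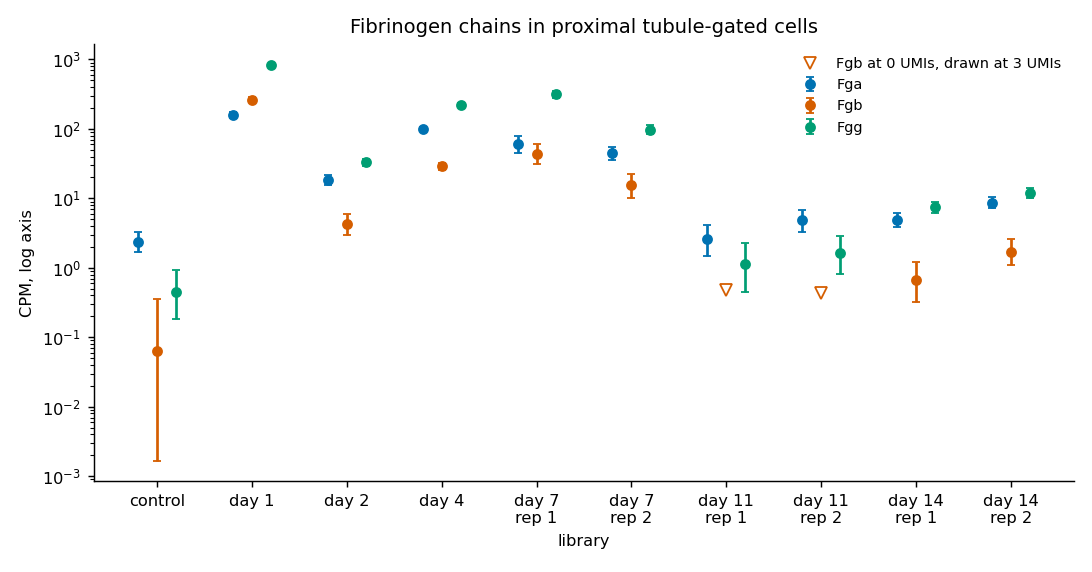
Levels of Fga, Fgb and Fgg in proximal tubule-gated cells of each library, in CPM on a log axis; points are libraries, bars exact 95% Poisson intervals, and open triangles mark Fgb at 0 UMIs, drawn at the level of 3 UMIs. Fgg ran from 0.45 in the control to 826 on day 1, and in the control and both day 11 libraries Fga lay above Fgg.

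The order of the libraries was nearly shared by the chains. By the 3 chains summed, day 1 (1247 CPM) was highest, followed by the first day 7 library (423), day 4 (354), the second day 7 library (157), day 2 (55.9), day 14 (22.3 and 13), day 11 (6.44 and 3.69) and the control (2.90). The day 7 libraries lay on both sides of day 4, so days 4 and 7 were not ordered beyond the spread between replicates. Mean levels with the SD of the replicates were 290 ± 188 CPM on day 7, 5.06 ± 1.94 on day 11 and 17.7 ± 6.52 on day 14 (n = 2 each). The control fell within the counting interval of the first day 11 library (2.34 to 5.54 CPM) and below that of the second (4.68 to 8.64). Day 11 and day 14 did not overlap.

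The makeup of the fibrinogen UMIs differed between days. In the control's proximal cells Fga gave 82.2% of 45 chain UMIs (exact binomial 95% interval 67.9 to 92.0) and Fgg 15.6%. On day 1 Fga gave 12.6% of 2848 UMIs (11.4 to 13.9), Fgb 21.1% (19.7 to 22.7) and Fgg 66.2% (64.5 to 68.0). Fgg remained the most frequent chain on day 2 (59.5%), day 4 (63.4%) and day 7 (75.2% and 62.0%). In the day 11 libraries Fga was again in the majority, at 69.6% of 23 UMIs (47.1 to 86.8) and 75.0% of 44 (59.7 to 86.8). On day 14 Fgg gave 56.9% of 195 UMIs (49.7 to 64.0) and 53.4% of 298 (47.5 to 59.1). Fga gave 37.9% (31.1 to 45.2) and 38.9% (33.4 to 44.7) there, below the control and day 11. The day 14 intervals overlap those of day 2, which had 32.8% Fga (28.5 to 37.3) and 59.5% Fgg (54.9 to 64.1). These are shares of UMIs, which are not corrected for how well each transcript is captured at its 3′ end.

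The Fgb share also differed by cell class. It was higher in injured tubule-gated than in proximal-gated cells in each of the 4 libraries with at least 39 chain UMIs in the injured gate. On day 4 it gave 21.2% of 326 UMIs in the injured gate (16.9 to 26.0), against 8.21% in the proximal gate (7.30 to 9.20). On day 7 it gave 38.5% of 39 (23.4 to 55.4) against 10.4% (7.57 to 13.9) in the first library, and 24.2% of 161 (17.8 to 31.6) against 9.76% (6.64 to 13.7) in the second. On day 1 the shares were 26.9% of 468 (23.0 to 31.2) and 21.1%, and those intervals do not overlap. UMIs of 1 cell are not independent, and single cells held up to 21, 17, 5 and 11 of the 126, 69, 15 and 39 Fgb UMIs in the injured gates of day 1, day 4 and the day 7 libraries. How much of these UMIs came from RNA caught from outside the cell was not tested.

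**Figure D2:**
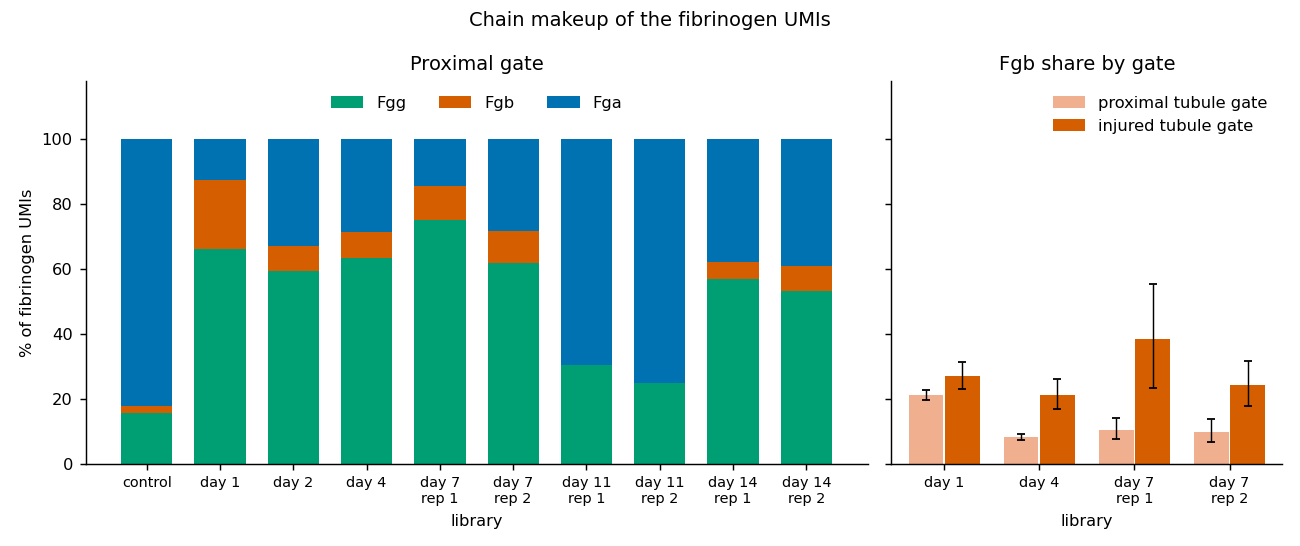
Left, the share of proximal-gated fibrinogen UMIs from each chain, by library. Right, the share from Fgb in the proximal and injured tubule gates on days 1, 4 and 7, with exact 95% binomial intervals. Fga is the largest part in the control and on day 11, Fgg elsewhere, and the Fgb share is higher in the injured gate in each library shown.

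At the level of cells, 48.4% of 920 proximal-gated cells had a UMI of any chain on day 1 (45.1 to 51.7) and 1.18% of 3636 did in the control (0.86 to 1.59). The share was 12.1% on day 2 and 28.6% on day 4. It was 29.6% and 17.4% in the day 7 libraries, 0.62% and 1.06% on day 11, and 3.68% and 5.61% on day 14. Depth differs between libraries, so cells were also thinned to 1000 UMIs each, leaving out shallower ones (182 cells of the control and between 68 and 771 of the other libraries). The thinned share was 0.26% for the control, while days 1, 2 and 4 gave 40.4%, 4.75% and 19.1%. The day 7 libraries gave 23.3% and 9.45%, those of day 11 0.45% and 0.48%, and those of day 14 1.57% and 2.24%. Thinning lowered every share. The order by group was kept except between the control and day 11: the control lay above both day 11 libraries before thinning and below both after it.

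Droplets also catch free RNA, which gives UMIs in cells that do not express a gene. Cells in the non-tubular gates, such as endothelial cells and macrophages, are not known as a source of fibrinogen and served as the background. On day 1, 14.9% of 416 such cells had a chain UMI (11.6 to 18.7; median depth 1188 UMIs, against 1577 in the proximal gate). Days 2 and 4 gave 1.20% and 4.09%, and the day 7 libraries 2.21% and 1.03%. It was 0 of 491 in the control, which at 3 counts allows up to 0.611%, 0 of 658 and of 437 on day 11 (up to 0.456% and 0.686%), and 0.29% and 0 of 233 (up to 1.29%) on day 14. The exact 95% upper limits of these zeros, the measure used for the other shares, are 0.748%, 0.559%, 0.841% and 1.57%. Unthinned, the proximal share lay above the non-tubular one in each library. Thinned non-tubular shares were 13.4%, 0.19% and 1.54% on days 1, 2 and 4, and 1.68% and 0.52% on day 7. Each was below the thinned proximal share. They were 0 in the control and on days 11 and 14, with upper limits of 0.91%, 0.81%, 1.35%, 1.80% and 2.46%. The thinned proximal shares there (0.26%, 0.45%, 0.48%, 1.57% and 2.24%) lay below those limits, so thinned they were not separated from the background. On day 1 the neutrophil gate (68 cells) held 53 of the 103 non-tubular chain UMIs, up to 16 in 1 cell, at 568 CPM with 23.5% of cells positive (14.1 to 35.4), whereas endothelial cells had 84.2 CPM with 12.8% of 227 positive (8.73 to 17.8). The day 1 background is therefore not uniform across the non-tubular gates. In the other tubular gates apart from the injured one, days 1 and 4 gave 15.4% and 8.14%, and the day 7 libraries 3.94% and 4.09%.

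Proximal cells held most of the chain UMIs. They carried 97.8% of them in the control and 75.3%, 91.8% and 85.1% in the libraries of days 1, 2 and 4. The day 7 libraries had 70.1% and 44.3% there, those of day 11 had 92.0% and 91.7%, and those of day 14 had 96.1% and 95.2%. The second day 7 library was the exception, with 24.0% of its chain UMIs in the injured tubule gate, and there 12.1% of all UMIs came from proximal cells. Injured tubule-gated cells had a chain UMI in 25.5% of 393 cells on day 1 (21.2 to 30.1), 18.7% of 657 on day 4 (15.8 to 21.9), and 7.83% of 230 and 12.8% of 359 on day 7. They were less often positive than proximal cells in each of these libraries, and their intervals did not overlap except in the second day 7 library (9.54 to 16.7 against 14.4 to 20.7). After thinning, the injured-gate shares were 16.3% on day 1, 6.85% on day 4, and 3.09% and 5.26% on day 7. In that order, the thinned non-tubular shares were 13.4% (9.58 to 17.9), 1.54% (0.67 to 3.01), 1.68% (0.87 to 2.91) and 0.52% (0.22 to 1.02). On day 1 the injured share lay within the non-tubular interval, so it was not separated from the background. In the other libraries it lay above, with only 6 positive cells in the first day 7 library.

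**Figure D3:**
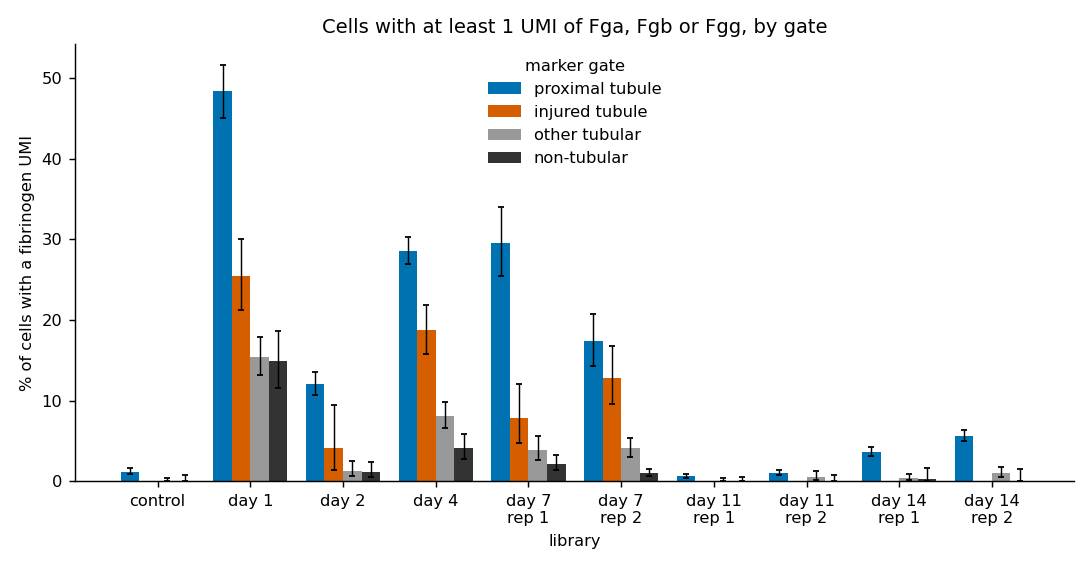
Share of cells with at least 1 fibrinogen UMI by marker gate and library, unthinned, with exact 95% binomial intervals; injured tubule bars are drawn where the gate held at least 100 cells. Among the bars drawn, proximal cells have the highest share in each library, and non-tubular cells reach 14.9% on day 1.

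Chain UMIs were spread unevenly over cells. On day 1, 82 proximal cells (8.91%) had 10 or more chain UMIs and on day 4, 72 cells (2.44%) did. These counts are not corrected for depth, and deeper cells were more often positive. Proximal cells were split by depth into 3 groups of equal size. On day 4, 15.9% of the shallowest group and 45.0% of the deepest had a chain UMI, at 276 and 373 CPM. Day 1 gave 31.9% and 61.4%, at 824 and 1164 CPM, with 1737 CPM in its middle group. In the first day 7 library and both day 14 libraries the CPM was lower in the deepest group than in the shallowest. It was 419 against 503, 9.85 against 24.9, and 20.8 against 25.9. In all other libraries it was higher in the deepest group. The part of depth in the cells with 10 or more was not tested. The day 2 library had 3 such cells, each day 7 library 5, the second day 14 library 1, and the control and day 11 libraries none. The highest cell held 235 chain UMIs on day 4, 191 of them Fgg, which was 1.03% of that cell's UMIs. On day 1 the highest cell held 97, or 3.60% of its UMIs. A single UMI was all that 34.8% of positive cells had on day 1, 46.2% on day 4 and 47.4% and 57.0% on day 7, against 95.3% in the control, 90.5% and 92.3% on day 11 and 93.4% and 88.3% on day 14.

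Chains were found together in a cell more often than the product of their separate shares. On day 1, 98 proximal cells had all 3 chains, where the product of the shares gives 17.1; on day 4, 75 cells did, where it gives 5.16. There were 3 such cells on day 2 (product 0.11), 9 and 7 on day 7 (0.66 and 0.19), 0 and 1 on day 14 (0.0030 and 0.013), and none in the control or on day 11. The product assumes cells of equal depth and level, and cells differ in both; after thinning to 1000 UMIs the counts were 33 against 4.44 on day 1 and 17 against 0.85 on day 4. They were 0 against 0.0031 on day 2, and 2 against 0.19 and 1 against 0.013 in the day 7 libraries. Of positive cells, 49.2% had at least 2 chains on day 1, 17.5% on day 2, 37.6% on day 4 and 28.1% and 24.0% on day 7, but 1.65% and 4.45% did on day 14.

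Pairs followed the chains' abundance. On day 1, 76.8% of Fga-positive proximal cells also had Fgg and 60.2% had Fgb, while 39.0% of Fgg-positive cells had Fga. On day 4, 58.2% of Fga-positive cells had Fgg and 19.5% had Fgb. Of the 35 Fga-positive cells in the control none had Fgb or Fgg, and none of the 15 and 29 on day 11 did either. The product of the shares gives 0.067 cells with Fga and Fgg in the control and 0.027 and 0.079 on day 11, so these zeros do not show whether the chains occur together there.

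**Figure D4:**
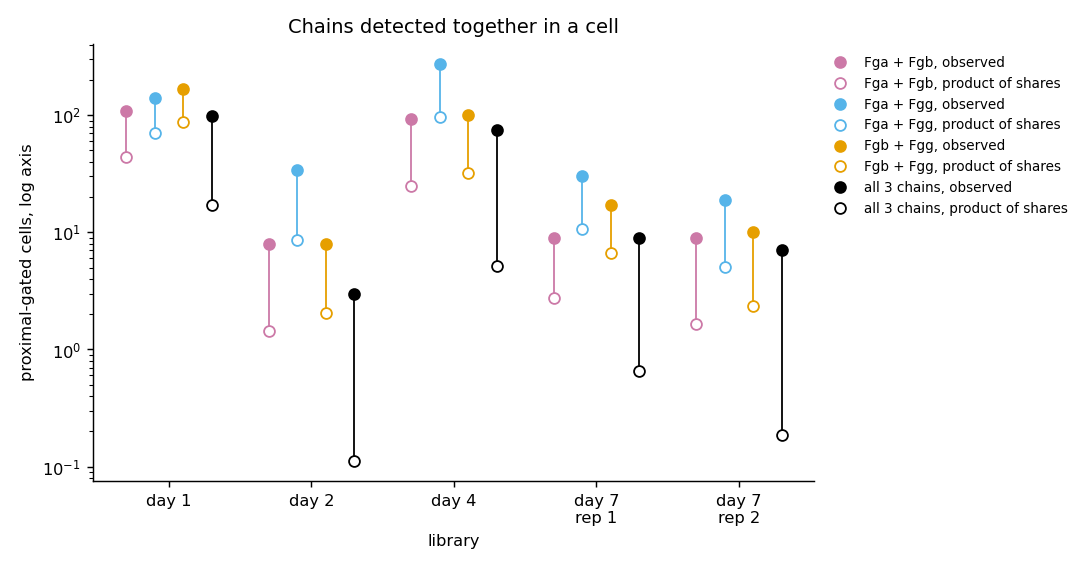
Number of proximal-gated cells with each pair of chains, and with all 3, on days 1, 2, 4 and 7 (log axis). Filled points are observed counts and open points the product of the chains' single shares times the cells; on day 1, 98 cells had all 3 chains against a product of 17.1.

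Within the proximal gate, cells were divided by transporters of the convoluted segment (Slc5a2 or Slc5a12 only) and of the straight segment (Slc7a13 or Slc22a7 only). In the control, 0.23% of 865 convoluted-type cells (0.028 to 0.83) and 1.72% of 1741 straight-type cells (1.17 to 2.45) had a chain UMI, at median depths of 1805 and 3681 UMIs and levels of 0.96 and 3.20 CPM. On day 4 the order was the other way round, with 38.2% of 1164 (35.4 to 41.1) and 20.2% of 392 (16.3 to 24.5) at depths of 1932 and 1965, and 505 against 218 CPM. The second day 7 library had the same order, with 247 CPM in 231 convoluted-type and 148 CPM in 69 straight-type cells, while the first had 566 and 582 CPM with only 8 straight-type cells. On day 14 the levels were 32.7 and 31.8 CPM in convoluted-type cells and 9.96 and 18.4 CPM in straight-type cells of the 2 libraries; in the second the share of positive cells ran the other way, at 5.33% against 5.95%. On day 11 they were 0.88 and 4.00 CPM against 5.01 and 8.04 CPM. By CPM, convoluted-type cells were thus lower than straight-type cells in the control and both day 11 libraries, where they rest on 2, 1 and 4 UMIs, and higher on day 4, in the second day 7 library and in both day 14 libraries. On days 1 and 2 only 19 and 20 straight-type cells were found. These transporter genes themselves change with injury, so the cells compared may not be the same segments on each day.

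Havcr1 encodes KIM-1, a marker of tubular injury. On day 1, 47.6% of 532 Havcr1-positive and 49.5% of 388 Havcr1-negative proximal cells had a chain UMI; after thinning the shares were 32.3% (27.4 to 37.5) and 48.0%. On day 4 they were 28.3% and 28.8%, and 15.8% and 20.7% after thinning. Day 2 gave 19.3% and 11.4%, and the day 7 libraries 22.5% against 40.0% and 20.2% against 15.1%; after thinning these were 4.35% and 4.77% on day 2, and 13.4% against 36.7% and 8.18% against 10.03% on day 7. Havcr1 status was called again on the thinned counts, which, with shallower cells left out, gave 350 positive cells in place of 532 on day 1 and 751 in place of 1406 on day 4, so a cell without a Havcr1 UMI may still express it. After thinning, the intervals of the shares did not overlap on day 1 or in the first day 7 library (9.04 to 18.9 against 28.9 to 45.1). On day 4 they were adjacent (13.3 to 18.7 against 18.7 to 22.8), and on day 2 and in the second day 7 library each share lay within the interval of the other. Over all tubular gates the thinned order was the other way round on day 1 (25.6% of 659 Havcr1-positive against 19.0% of 1253 other cells). Those intervals did not overlap (22.4 to 29.2 against 16.9 to 21.3), so on day 1 the order differed with the gate. The day 7 values lay the same way (8.91% against 8.69% and 6.65% against 4.04%), but their intervals overlapped. Havcr1 is also a marker of the injured gate, so cells high in it could be placed there and not in the proximal gate.

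Markers of other cell types were followed beside the chains. The 12 hepatocyte genes summed to between 4.59 and 31.8 CPM over used cells in every library but the first day 11 one, which had 202 CPM, 187 of them from Ttr. Albumin (Alb), the defining hepatocyte transcript, was at most 0.51 CPM in any library. In the proximal cells with 10 or more chain UMIs, the list gave 4 UMIs in 82 cells on day 1 and 1 UMI in 72 cells on day 4. The platelet and megakaryocyte list, which includes a known carrier cell of plasma fibrinogen, reached at most 60.4 CPM over used cells. Erythroid genes, a sign of free RNA from blood, summed to 1783 CPM on day 1, with 1203 and 231 in the day 7 libraries and 1735 and 900 in those of day 11, against 84.0 in the control. They summed to 76.6 CPM on day 2, 575 on day 4, and 157 and 215 on day 14; their part in the chains' levels was not tested.

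To set the chains beside other genes, UMIs were summed over all tubular-gated cells of each library and scaled by TMM, edgeR's normalization. On that scale the control had 2.09 CPM of the 3 chains together, and days 1, 2 and 4 had 447, 32.8 and 169 CPM. The replicates gave 80.5 and 42.2 CPM for day 7, 3.05 and 6.36 for day 11, and 13 and 22.3 for day 14. Against the control the log2 change was 4.88 for day 7, 1.17 for day 11 and 3.08 for day 14, and day 14 differed from day 7 by -1.80. The pooled replicate SD was 0.66 on the log2 scale, and no test was made. Proximal cells gave 55.4% of all UMIs in the control, 13.3% and 12.1% on day 7 and 72.8% and 73.1% on day 14, and in proximal cells alone the change from day 7 to day 14 was -3.31.

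The pathway lists were tested in the same tubular sums with the quasi-likelihood test of edgeR, adjusted by Benjamini-Hochberg over 16256 genes, and a threshold of 0.05. On day 7 against the control, 5456 genes were called (33.6%), 16% of all higher and 17.5% lower. The scaling bears on this: with total counts in place of TMM the median gene moved from 0.04 to 0.80 on the log2 scale, and 7608 genes were called higher and 1099 lower. Changes are given relative to the TMM scaling. The control is a single library, assumed to vary like the replicated days. The cell mix differed as well: beside the lower proximal share, macrophage-gated cells were 43 of the control's cells and 800 and 1268 of those on day 7. Its part in the changes of the tubular sums was not tested; the same changes in proximal cells alone are given after the comparisons.

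Of the acute-phase proteins, the group to which fibrinogen belongs in the liver, 8 of 13 tested genes were higher on day 7 and none lower, with a median log2 change of 5.01 against 0.04 over all genes. Lcn2, an iron-siderophore binding protein of injured tubule, stood at 3.27 CPM in the control and 944 and 990 on day 7, a log2 change of 8.21 ± 0.42 (SE; adjusted p 3.2e-06). C3, the central complement protein, went from 2.04 to 324 and 337 CPM (7.33 ± 0.30, adjusted p 1.9e-06). Cp, the copper-carrying ferroxidase ceruloplasmin, went from 10.8 to 357 and 342 CPM (5.01 ± 0.63). Fgl2, a fibrinogen-related prothrombinase, was called higher (2.22 ± 0.49), though not in proximal cells alone (adjusted p 0.15 there). Saa1, a major liver acute-phase protein, was at most 1.43 CPM in any library and at 0 in the control. All 9 acute-phase genes called on day 14 against day 7 (44.9% of all genes were called, 24% higher and 20.9% lower) were lower.

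Of the interleukin-6 family and transcription factor list, 7 of 15 tested genes were higher on day 7 and 2 lower, with a median of 0.03. Stat3, the transcription factor downstream of interleukin-6 receptors, went from 34.2 CPM in the control to 106 and 107 (1.64 ± 0.20, adjusted p 0.00018). Socs3, its feedback inhibitor, went from 11.9 to 70.6 and 82.7 (2.69 ± 0.26), and Bcl3, a nuclear partner of NF-kappaB, changed by 3.14 ± 0.33. Osmr, the oncostatin M receptor, went from 0.27 to 9.39 and 11.6 CPM (5.24 ± 0.51), and Il6ra, the interleukin-6 receptor, changed by 3.30 ± 0.64. Not all followed genes of the list rose. Cebpb, a C/EBP factor, changed by 0.03 ± 0.34 (adjusted p 0.96) and Il6st, a receptor chain, by -0.52 ± 0.20 (adjusted p 0.069). Neither was called. Il6 itself was at most 0.27 CPM in the tubular sums of any library and was not tested.

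Of the fibrinolysis genes, which control the breakdown of fibrin, 6 of 10 were higher on day 7 and 3 lower, with a median of 1.04. Plat, tissue plasminogen activator, went from 0.77 CPM in the control to 71.3 and 90.1 (6.70 ± 0.47, adjusted p 9.4e-06). Anxa2, a plasminogen receptor subunit, went from 24.3 to 533 and 673 (4.63 ± 0.36). Plaur, the urokinase receptor, was also called higher, by 7.33 ± 0.74, from 0.045 CPM in the control. Serpinf2, alpha2-antiplasmin, fell from 176 to 11.1 and 19.8 CPM (-3.47 ± 0.34, adjusted p 5.1e-05) and Serpine2 fell by 1.68 on the log2 scale, though over all used cells its change was -0.52 and not called (adjusted p 0.061). Plau, urokinase, was abundant throughout, between 88.6 and 252 CPM, and was called in none of the 4 comparisons. Plg, plasminogen, was at most 0.71 CPM and not tested.

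Of the coagulation factors and inhibitors, 7 of 19 were higher and 6 lower on day 7, with a median of 0.35. F3, tissue factor, the cell-surface starter of coagulation, went from 18.6 to 58.6 and 74.0 CPM (1.84 ± 0.25, adjusted p 0.00033), and Pros1, protein S, changed by 2.46 ± 0.28. F13b, the carrier subunit of the fibrin-crosslinking factor XIII, fell from 39.1 to 5.39 and 5.53 CPM (-2.83 ± 0.20, adjusted p 1.0e-05), and Proc, protein C, fell from 65.7 to 8.87 and 14.6 (-2.44 ± 0.27). On day 14 F13b stood at 131 and 127 CPM, above the control (1.72 ± 0.20, adjusted p 0.0032). Thbd, thrombomodulin, was called higher on day 7 (2.04 ± 0.60, adjusted p 0.025), though not in proximal cells alone (0.06) and not without the first day 7 library (adjusted p 0.054).

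Of the fibrinogen and fibrin receptors, 4 of 11 were higher on day 7 and none lower, with a median of 1.95. Icam1, an adhesion molecule that binds fibrinogen, went from 1.68 to 46.6 and 45.4 CPM (4.77 ± 0.30, adjusted p 7.0e-06), and Itgav, the alpha-v integrin, changed by 1.27 ± 0.23. Itgb2, the leukocyte integrin beta chain, was called at low level (0.27 against 5.05 and 1.13 CPM; adjusted p 0.019), but not without the first day 7 library (adjusted p 0.053). Its partner Itgam stood at 25.1 CPM in the control's tubular cells and between 22.1 and 81.5 in the other libraries, while Itgb2 was at most 5.05.

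**Figure D5:**
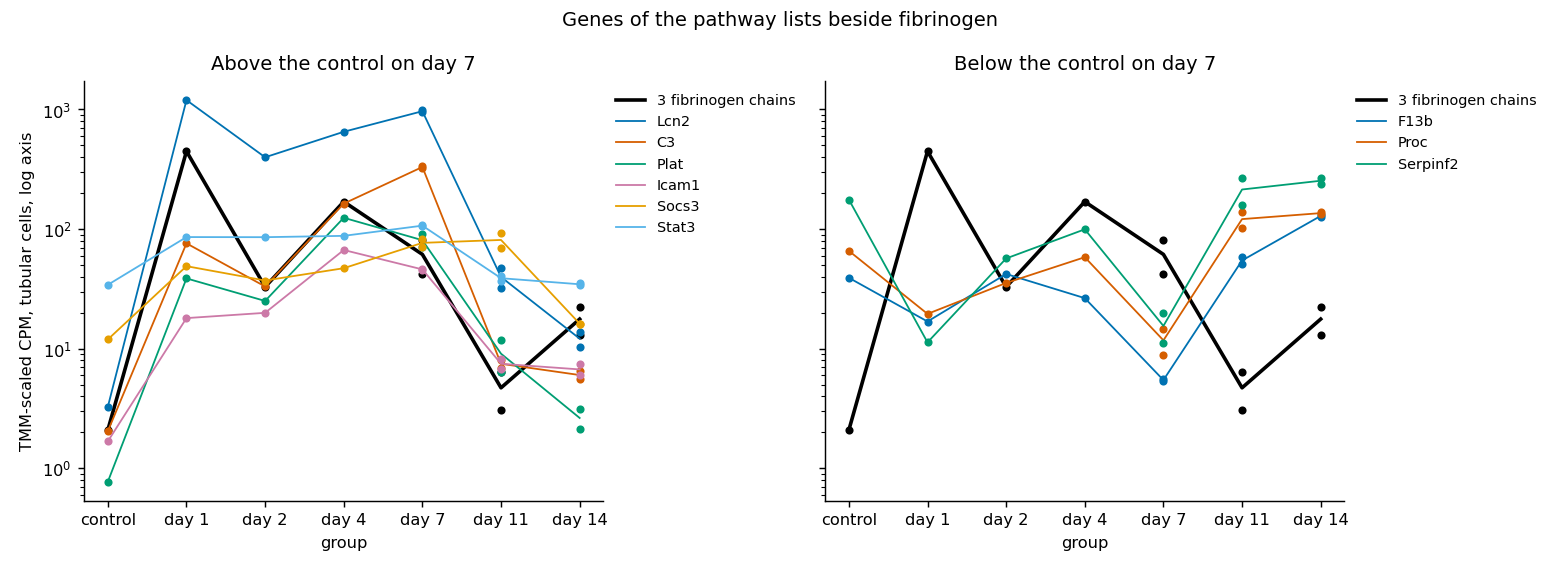
TMM-scaled CPM in tubular-gated cells (log axis) of the 3 chains summed and of 9 genes of the pathway lists; points are libraries and lines join group means. The chains fall from day 1 to day 2 and again from day 7 to day 11, and so do Lcn2 and C3. Lcn2 and C3 stay above 30 CPM on days 1 to 7. F13b, Proc and Serpinf2 are lowest on day 7 or day 1.

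On day 11 against the control, 2972 genes were called (18.3%; 9.15% higher and 9.13% lower). Fibrinolysis had 6 of 10 genes higher and none lower, with a median of 0.90 against 0.11 over all genes. Plat stood at 6.36 and 11.8 CPM (3.54 ± 0.47, adjusted p 0.0026) and Anxa2 at 110 and 80.5 (1.97 ± 0.31, adjusted p 0.0046). Plaur, S100a10 (the partner of Anxa2) and Plgrkt (a plasminogen receptor) were also higher, and each lost its call without 1 or the other of the day 11 libraries. Without the second day 11 library the adjusted p was 0.13 for Plaur, 0.092 for S100a10 and 0.13 for Plgrkt; without the first it was 0.057 for Plgrkt. Plgrkt also lost it without either day 14 library (0.068 and 0.069).

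Socs3 was still high on day 11, at 68.9 and 93.2 CPM (2.76 ± 0.26, adjusted p 0.00089), when the summed chains had 3.05 and 6.36 CPM on the same scale, against 2.09 in the control. In the same comparison 2 of 15 genes of that list were higher and 1, Il6st (the shared receptor chain gp130), was lower (-0.77 ± 0.20), a call lost without either day 11 library (adjusted p 0.077 and 0.12). Lcn2 (3.60 ± 0.34) and C3 (1.87 ± 0.27) were among 3 of 13 acute-phase genes higher, and Icam1 (2.15 ± 0.30) and Itgam (1.39 ± 0.30) were the 2 of 11 receptors. Itgam lost its call without the second day 11 library (adjusted p 0.064). F3 was the only coagulation gene higher (0.85 ± 0.24), with 1 of 19 lower, and its call was lost without either day 11 library (adjusted p 0.14 and 0.059) or either day 14 library (0.062 and 0.063). It was also lost in proximal cells alone (0.49, adjusted p 0.25) and in cells with at most 25% mitochondrial UMIs (0.60, adjusted p 0.12).

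On day 14 against the control, 1223 genes were called (7.52%; 4.39% higher and 3.13% lower), 714 higher and 509 lower. With DESeq2's size factors the numbers were 570 and 629, and with total counts 561 and 638. Coagulation had 4 of 19 genes higher and none lower, fibrinolysis 1 of 10, receptors 1 of 11 (Icam1, 1.99 ± 0.29) and acute-phase proteins 2 of 13, Lcn2 (1.89 ± 0.33) and C3 (1.55 ± 0.26). The list medians were -0.41, 0.61, 0.21 and -0.27, against 0.07 over all genes. Lcn2 lost its call in proximal cells alone, with a change of similar size (1.72, adjusted p 0.44). C3 lost its call there (0.95, adjusted p 0.062) and without the second day 14 library, where its change was 1.43. Of the interleukin-6 family and transcription factor list, 2 of 15 tested genes were higher and 1 lower, with a median of 0.43. Bcl3 (1.25 ± 0.33) was among the higher genes, and Cebpb, a C/EBP factor of the acute-phase response, was the lower gene (-1.44 ± 0.34).

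The smaller day 14 calls were lost under several alternatives. In proximal cells alone the change was 0.08 for Bcl3 (adjusted p 0.91), 0.46 for Proc (0.42) and 0.45 for Tfpi2 (0.21). Cebpb kept its call there (-1.82, adjusted p 0.011). With all libraries the change was 1.05 ± 0.28 for Proc and 1.03 ± 0.26 for Tfpi2, an inhibitor of plasmin and other serine proteases. Without the second day 14 library the lost calls were those of Bcl3 (0.95), Cebpb (-1.39), Proc (1.08) and Tfpi2 (1.07). Without the first they were those of Cebpb (-1.49), Proc (1.01) and Tfpi2 (0.99). Without either day 11 library Bcl3 (1.25 both times) and Proc (1.05 both times) lost theirs. The changes of Cebpb, Proc and Tfpi2 thus stayed near their values with all libraries.

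From day 7 to day 14 genes of the lists changed in both directions, where 24% of all genes were called higher and 20.9% lower. Coagulation had 6 of 19 genes higher and 8 lower, fibrinolysis 3 of 10 higher and 5 lower, receptors 7 of 11 lower, and interleukin-6 signalling 4 of 15 higher and 8 lower; the list medians were -0.76, -0.58, -1.18 and -1.47, against -0.02 over all genes. Genes high on day 7 fell: Lcn2 by 6.31, C3 by 5.78, Cp by 5.49, Plat by 4.95, Anxa2 by 4.45, Pros1 by 3.20, Icam1 by 2.78, Socs3 by 2.25, Bcl3 by 1.89, Stat3 by 1.63 and Itgav by 1.07 on the log2 scale. Genes low on day 7 rose: F13b by 4.55, Serpinf2 by 3.99, Proc by 3.49, Tfpi2 by 2.83 and Serpine2 by 2.08, the last not called over all used cells (0.16, adjusted p 0.44). Itgb1 fell by 0.66, a call lost without either day 14 library (adjusted p 0.054 and 0.089). With total counts the median gene moved by -0.86, and 1531 genes were called higher and 9113 lower in place of 3903 and 3404. These comparisons share libraries, so the day 7 and day 14 values are not independent of one another.

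In proximal cells alone, 23 of the named genes of the lists or neighbours were compared on day 7 against the control. Of these, 12 had a change that differed from that of the tubular sums by more than 1.5 times. Smaller there were the changes of Serpinf2 (-2.29), Proc (-1.73), F13b (-1.42), Osmr (4.33), F3 (1.0) and Thbd (0.06). Larger were those of Plaur (8.78), Anxa2 (6.42), Pros1 (4.51), Socs3 (4.44), Itgb2 (4.33) and Stat3 (2.32). All of these but Thbd were also called in proximal cells (adjusted p of at most 0.031).

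On day 11, 3 of 12 differed as much, with larger changes of Plaur (5.89), Socs3 (4.19) and Anxa2 (3.23) in proximal cells. On day 14 against the control, 4 of 8 were smaller, namely F13b (1.13, adjusted p 0.015) and the uncalled C3, Proc and Bcl3 given above. From day 7 to day 14, 10 of 18 differed, and each was called. F13b (2.55), Serpinf2 (2.22), Proc (2.19) and Tfpi2 (1.19) rose less, while C3 (-6.83), Cp (-6.13), Anxa2 (-5.74), Pros1 (-3.95), Socs3 (-3.34) and Bcl3 (-2.95) fell further.

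The neighbours of the gene cluster are given for comparison. Plrg1 lay between 11.5 and 18.1 CPM in the tubular sums of all libraries and was called in none of the 4 comparisons under TMM, though with total counts it was called higher on day 7 against the control (1.12) and lower on day 14 against day 7 (-0.65, adjusted p 0.00996). Lrat was at most 2.12 CPM, with values of 0.13 CPM on day 1 and 0.84 and 2.07 on day 14; it was called higher on day 14 than on day 7 (2.41, adjusted p 0.029).

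Across the 10 libraries, Pearson's r between the chains' log2 levels in tubular cells was 0.96 for Fga and Fgg, 0.96 for Fgb and Fgg and 0.94 for Fga and Fgb. Of 10574 genes with a mean of at least 5 CPM, the 8 most like the summed chains were Ikbkb (r = 0.97), Ssrp1 and Eftud2 (0.96), Sept11, Orc6, Lig1, Mcm2 and Cspg4 (0.95). Ikbkb, for example, had 27.1 CPM in the control, and 65.4, 41.9 and 61.9 in the libraries of days 1, 2 and 4. Havcr1 had r = 0.89 and ranked 88 of these genes, and Lcn2 had 0.82. These points share library depth and cell mix, and the correlations are descriptions over 10 libraries with no test.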

How the data were processed

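The deposited values are counts, 1 table of gene symbols by cell barcodes per library; per the labels' protocols, the authors made the libraries by Drop-seq with PCR amplification and a modified Nextera XT preparation of the cDNA's 3′ end. The submitters' processing notes name Bowtie2 2.2.7 and mm10, without saying for which step. That the counts are UMIs was read from their values; the counting tool, annotation, strand setting and filters are not given in the sources used here.

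Barcodes were dropped below 500 UMIs, below 500 detected genes (a step that took out barcodes only on day 11, 5362 and 5424 of them) or above 50% mitochondrial UMIs. The cells with the top 5% of Scrublet scores per library were removed (scanpy 1.11.5), since the automatic threshold marked between 1 and 15 cells. The marker gates scored each class by its marker share relative to the median of its 200 highest cells, and called a cell mixed where a tubular and a non-tubular class, or 2 non-tubular classes, lay within 2 times. These gate settings were chosen after values of these data had been seen. Counts per library were summed over tubular-gated cells and fitted in edgeR 4.0.16 (R 4.3.3) with filterByExpr, TMM and 1 term per group over all 10 libraries; the fit was tested on simulated data. DESeq2 1.42.0, other filters, other cell sets and leaving out each replicated library were the alternatives. The fibrinogen genes, the lists and the tests were chosen with earlier results of these data known. Fibrinogen itself was described without a test.

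Genes named from a list were up to 4 called genes per comparison with the largest change, a mean log2 CPM of at least 3 and all replicates on 1 side, plus a set followed throughout; of that set, Cebpd has no row in the tables, and 2 genes that the rule names are not reported here, though they count in their lists. The lists held 23 coagulation, 12 fibrinolysis, 11 receptor, 17 interleukin-6 and transcription factor, and 22 acute-phase genes; those not tested fell under the filter on low counts. Likeness used log2(CPM + 1). Locus coordinates are from GENCODE M21 and promoters from RefSeq, which held all 3 genes.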

Additional observations from a re-analysis of the deposited data

How the results depend on the processing

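The log2 change of the summed chains kept its sign under every alternative run. Day 7 against the control was 5.76 in proximal cells alone and 5.65 with total counts, in place of 4.88, and 4.34 to 5.28 with a library left out. Day 14 against day 7 was -3.31 and -2.65, in place of -1.80, and -2.25 to -1.26 with a library left out. With a library left out, day 11 against the control ranged from 0.55 to 1.61 and day 14 from 2.64 to 3.42; the cause was not tested.

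Genes called on day 7 against the control rose from 5456 to 8707 with total counts, an alternative chosen after seeing the data, and were 4816 to 5333 with a library left out. On day 11 the 2972 became 4551 with only the 2 groups fitted and ranged from 800 (without the second day 11 library) and 1906 (without the first) to 4296. On day 14 the 1223 became 2293 with no filter on low counts and 3435 with only the 2 groups. Leaving out a library gave 231 without the second day 14 library, 509 without the first, and 2383 and 2345 without the first or second of day 7. Day 14 against day 7 gave 4781 in proximal cells alone, in place of 7307, and 5083 to 7054 with a library left out. The cause of these was not tested. A day with 1 library left was assumed to vary like the other days. The replicate block gave 7399 there. Same-numbered libraries of days 7 and 11, 7 and 14, and 11 and 14 deviated with correlations of 0.13, -0.025 and -0.060 across genes. The labels give them only a shared number, and whether they share a preparation was not tested.

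Over 61 tests of named list genes, 872 alternative values kept their call, 57 lost it, 1 gained it and 2 changed sign. The last were Plrg1 on day 14 against day 7, with -0.22 in proximal cells alone and -0.65 with total counts, the latter also called (adjusted p 0.00996), where the value with TMM was 0.19 and not called.

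Thinning to 1000 UMIs moved the share of proximal cells with a chain to 0.26% in the control and to 40.4%, 4.75% and 19.1% in the libraries of days 1, 2 and 4. The day 7 shares moved to 23.3% and 9.45%, the second day 11 share to 0.48% and the day 14 shares to 1.57% and 2.24%. Positive cells with at least 2 chains moved to 37.8% on day 1, 9.21% on day 2, 29.1% on day 4, 10.4% in the second day 7 library and 0 in the first day 14 library. A stricter gate of 6 marker UMIs, chosen after seeing the data, moved the summed level outside its counting interval in the day 1 library (1337 CPM) and the first day 7 library (525 CPM) only. In the control and on day 11 the chains rest on 45, 23 and 44 UMIs, which limits what can be said of their levels there.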

Other observations

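Outside the proximal and injured gates, distal convoluted tubule cells held fibrinogen UMIs above the non-tubular background on days 4 and 7. On day 4, 11.9% of 310 such cells had a chain UMI (exact 95% interval 8.54 to 16.1), against 4.09% of the non-tubular cells (2.73 to 5.85). In the day 7 libraries the shares were 10.9% of 129 (6.06 to 17.5) and 9.01% of 222 (5.59 to 13.6), against 2.21% (1.40 to 3.29) and 1.03% (0.63 to 1.58). Since depth differs between the gates, the levels are given too: 66.8 CPM on day 4 and 32.1 and 49.8 on day 7, against 21.7, 14.9 and 5.34 CPM in the non-tubular cells. Thinned to 1000 UMIs, the distal shares were 5.88%, 4.17% and 5.24%, against 1.54%, 1.68% and 0.52%, with 4 positive distal cells in the first day 7 library. On days 1 and 2 the order of the levels was the other way round, with 69.7 and 2.13 CPM in distal cells against 144 and 6.16 CPM. The day 2 levels rest on few UMIs, so their order is uncertain. The non-tubular cells held 10 chain UMIs, and all tubular gates outside the proximal and injured ones together held 15. The day 1 shares were 15.2% (11.1 to 20.2) and 14.9% (11.6 to 18.7), and 5.91% and 13.4% after thinning. Thick ascending limb cells had 7.69% on day 4 and 3.62% and 4.79% on day 7.

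The liver serpins Serpina1a, Serpina1b and Serpina1c encode forms of alpha-1 antitrypsin and are near-identical, so counts may be split among them. Their levels over all used cells were higher on days 4 and 7 than in the control, on day 1 or on day 14; none of this was tested. Serpina1b had 3.11 CPM in the control, 0.59 on day 1 and 10.1 on day 4. The first day 7 library had 13.97 CPM and the second 10.01, while those of day 11 had 9.26 and 5.87 and those of day 14 had 0.92 and 1.75.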
